A study of Mus musculus with 4 samples.

Results

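Fc receptors bind the constant part of antibodies, and 6 mouse genes for receptors of IgG and their shared signalling chain were examined in sorted CD103-positive dendritic cells (DCs). The genes were taken by symbol, namely Fcgr1, Fcgr2b, Fcgr3, Fcgr4, Fcer1g and Fcgrt. All 6 were found among the 46078 gene rows, and all 6 passed the filter on low counts that left 14995 genes for testing. The study compared mice of genotype CD11c-cre-Il33flx/flx (Il33flx), in which CD11c-expressing cells can lose the cytokine gene Il33, with CD11c-cre mice (Ctrl), with 2 libraries in each group. Animals of both groups carried the Cre transgene and had been injected 10 days earlier with EL4-Flt3 tumour cells, made from the mouse lymphoma line EL4. Spleen and mesenteric lymph node cells were sorted as CD45+, CD11b+, MHCII+ and CD103+ but CD64-, and CD64 is the protein of Fcgr1. Cre under the CD11c promoter is active in DCs and some other myeloid cells. The labels state neither age nor strain, nor how many animals each library holds, and the spread on which the p-values rest may therefore be technical only.

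Fcgr1, Fcgr3 and Fcgr4 encode the ligand-binding chains of activating receptors, which signal through the gamma chain encoded by Fcer1g and the kinase Syk. Fcgr2b encodes the inhibitory receptor, whose tail recruits the lipid phosphatase encoded by Inpp5d. Fcgrt encodes the neonatal Fc receptor, which sits in endosomes, pairs with beta-2 microglobulin and returns IgG and albumin to the cell surface. On DCs, these receptors take up antibody-bound antigen, and the inhibitory receptor is known to restrain activation by immune complexes.

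Library totals were 67707682 to 69983532 gene counts in Il33flx and 75094424 to 81217828 in Ctrl. Il33 itself had 4 and 0 counts in Il33flx libraries 1 and 2, against 4 and 8 in Ctrl libraries 1 and 2. Counts in Il33flx relative to Ctrl gave 0.378 after scaling (exact 95% limits for counting error 0.0890 and 1.25), so Il33 does not check the labels at counts this low. Among the other genes of the gate, the integrin gene Itgae (CD103) had 56.8 to 76.6 CPM in Il33flx and 68.5 to 116 CPM in Ctrl. CPM are counts scaled to a common library total after TMM normalization, which adjusts for composition. The integrin gene Itgam (CD11b) had 97.8 to 114 CPM in Il33flx and 108 to 128 CPM in Ctrl, and H2-Ab1 (MHCII) 33060 to 39032 CPM in Il33flx and 34609 to 42775 CPM in Ctrl. Ptprc (CD45) had 976 and 907 CPM in Il33flx libraries 1 and 2, against 563 and 1012 CPM in Ctrl libraries 1 and 2. Itgax (CD11c) had 359 and 407 CPM in Il33flx libraries 1 and 2, against 647 and 517 CPM in Ctrl libraries 1 and 2. Its log2 fold change came to -0.60 (SE 0.19, p 0.0182 before and 0.995 after adjustment, edgeR). Both Il33flx values lay below both Ctrl values, as for 14.9% of tested genes. Ctrl 1 stood apart from the other libraries: its log2 CPM correlated with theirs at r = 0.969 to 0.970 across the tested genes, whereas the other 3 libraries correlated with each other at 0.979 to 0.983. These correlations are across genes, which are not independent replicates, and only describe the libraries. Fold changes of the 6 genes are therefore given with and without Ctrl 1.

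None of the 6 genes passed the adjusted threshold of 0.05 (adjusted p = 0.995 for each, edgeR), where 0.00667% of all tested genes did. At an unadjusted p under 0.05 there were also 0 of the 6, where 3.26% of tested genes stood. None of the 6 was called by limma-voom (0% of tested genes), by DESeq2 (0.353%), with a filter of 1 CPM (0.00869%), with the replicate number as a block (0.22%), or when each library in turn was omitted (0.00667% to 0.44%). Fcgr3 read higher in each Il33flx library than in either Ctrl library, as 15.4% of tested genes did, and Fcgr2b read lower in both, as 14.9% did. The groups of the other 4 genes overlapped. A log2 fold change below 0 was found for 5 of the 6 genes and for 48.2% of tested genes. The median log2 fold change was -0.18 over the 6 genes and 0.01 over all genes tested.

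**Figure D1:**
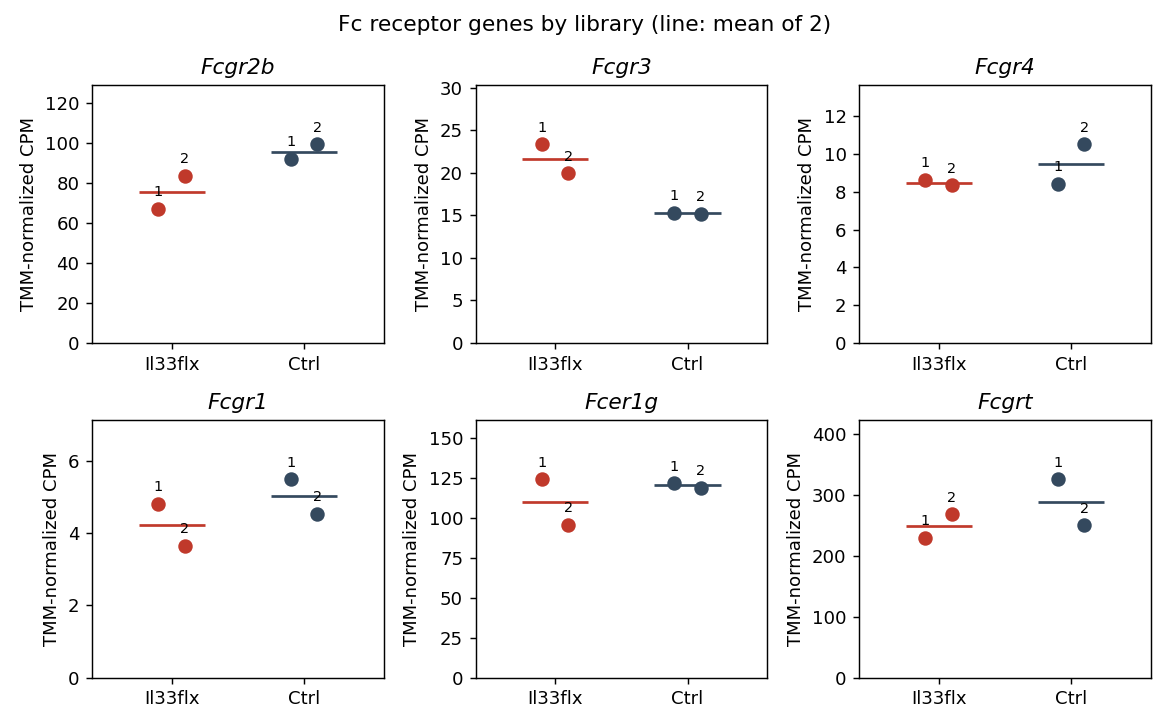
TMM-normalized CPM of the 6 Fc receptor genes in each library, with Il33flx left and Ctrl right in every panel, library numbers above the points and a line at the mean of 2 libraries. Each axis starts at 0. Fcgr2b and Fcgr3 are the panels without overlap between the groups, with Fcgr2b lower and Fcgr3 higher in Il33flx.

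Fcgr2b, the inhibitory receptor gene (ENSMUSG00000026656, GRCm38 chromosome 1, 170958617 to 170976547, minus strand), had 4733 and 5919 counts in Il33flx libraries 1 and 2, against 7046 and 7452 in Ctrl libraries 1 and 2. Normalized, it averaged 75.3 ± 11.7 CPM in Il33flx and 95.4 ± 5.14 CPM in Ctrl (SD, n = 2 each). The lowest library was Il33flx 1 at 67.0 CPM, and the highest Il33flx value, 83.6 CPM, lay below the lowest Ctrl value, 91.8 CPM. Its log2 fold change came to -0.34 (SE 0.19, 95% interval -0.81 to 0.12, unadjusted p 0.125, edgeR). Without Ctrl 1, which leaves 1 Ctrl library, the log2 fold change was -0.39.

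Fcgr3, the gene of a low-affinity activating receptor (ENSMUSG00000059498, chromosome 1, 171051174 to 171064935, minus strand), went the other way. It had 1646 and 1412 counts in Il33flx libraries 1 and 2, against 1173 and 1140 in Ctrl libraries 1 and 2. Its mean was 21.6 ± 2.39 CPM in Il33flx and 15.2 ± 0.0902 CPM in Ctrl (SD, n = 2 each), so the Ctrl libraries nearly coincided while the Il33flx libraries differed by more. Its log2 fold change came to 0.51 (SE 0.21, 95% interval -0.0050 to 1.02, unadjusted p 0.0517, edgeR). Without Ctrl 1, which leaves 1 Ctrl library, it was 0.52. The intervals of both genes include 0.

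Since Fcgr2b and Fcgr3 are counted from related transcripts, the sequence that they share is shown here. Their coding sequences are those of the CCDS transcript with the longest coding sequence in GENCODE M21, 1020 bases for Fcgr2b and 801 for Fcgr3. A local alignment joined bases 126 to 634 of Fcgr2b with bases 111 to 619 of Fcgr3 and had 491 identical bases in 509 columns (96.5%). The longest identical run was 129 bases. Of it, 120 bases follow, at coding bases 278 to 397 of Fcgr2b and 263 to 382 of Fcgr3, where a read lying wholly inside has the same letters in both genes.
Fcgr2b and Fcgr3, shared stretch: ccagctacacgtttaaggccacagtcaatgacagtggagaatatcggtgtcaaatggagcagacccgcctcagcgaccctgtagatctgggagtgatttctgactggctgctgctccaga
The gap-free stretch of the same length with the fewest identical bases, 109 of 120, lies at coding bases 131 to 250 of Fcgr2b and 116 to 235 of Fcgr3. Capitals mark the bases that differ between the genes.
Fcgr2b: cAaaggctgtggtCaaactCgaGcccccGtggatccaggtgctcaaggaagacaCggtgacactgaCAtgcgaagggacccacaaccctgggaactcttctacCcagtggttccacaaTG
Fcgr3: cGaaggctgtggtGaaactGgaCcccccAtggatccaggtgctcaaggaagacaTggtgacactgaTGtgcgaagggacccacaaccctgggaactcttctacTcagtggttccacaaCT

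**Figure D2:**
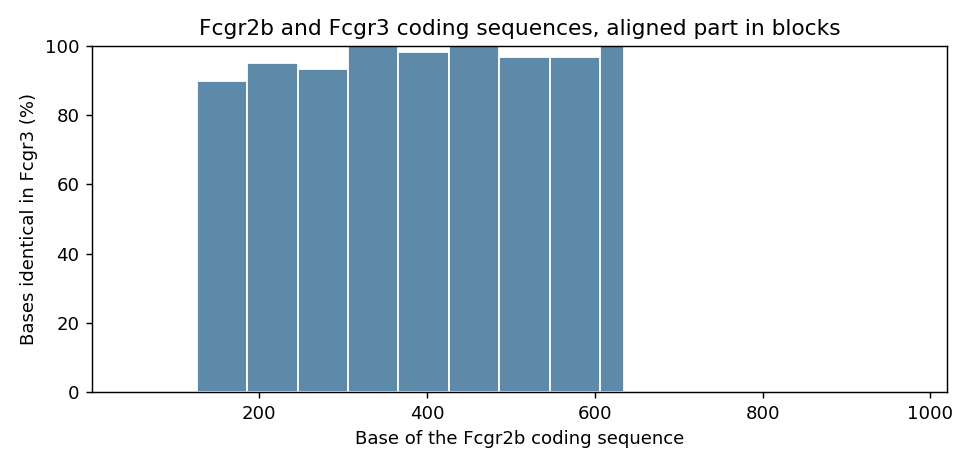
Percent of bases of Fcgr2b that are identical in the aligned Fcgr3 coding sequence (y axis), in blocks of 60 alignment columns along the Fcgr2b coding sequence (x axis, bases), with a last block of 29. Blocks run from 90% to 100% identity, and the ends of the coding sequence lie outside the local alignment.

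The share of sequence that could be lost in this way depends on the read length, which is not given in the sources used here. Over all annotated transcripts, windows of 50 bases that also occur in Fcgr2b made up 9.58% of the windows of Fcgr3, windows of 75 bases 5.42% and windows of 100 bases 2.54%. For Fcgr2b, windows also found in Fcgr3 made up 2.92%, 1.63% and 0.753% at these lengths. Other Fcgr2b windows occurred in genes outside the family, so that 6.95% of its 50-base windows were shared with some other gene. Within the coding sequences alone, the shares of the 2 genes were closer. There, 50-base windows also found in the other gene made up 17.1% of Fcgr2b and 22.1% of Fcgr3. At 75 bases they made up 9.94% and 12.9%, and at 100 bases 4.78% and 6.27%. Fcgr1, Fcgr4, Fcer1g and Fcgrt had 0 windows of 50 bases in common with any other annotated gene. Fcgr4 was 64.1% identical to Fcgr2b and 62.1% identical to Fcgr3 over the aligned coding bases, with identical runs of at most 14 bases. The antisense gene Gm38204, which overlaps Fcgr2b on the opposite strand, had 0 counts in each library, and the strand setting of the authors' counting is not given in the sources used here.

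The balance of the inhibitory and the activating low-affinity receptor was read within each library, where total depth and scaling cancel. There were 0.348 and 0.239 Fcgr3 counts per Fcgr2b count in Il33flx libraries 1 and 2, against 0.166 and 0.153 in Ctrl libraries 1 and 2. Both Il33flx values lay above both Ctrl values, and Il33flx 1 stood farthest from the rest. Per length of the union of annotated exons, Fcgr2b made up 46.3% and 55.7% of the pair in Il33flx libraries 1 and 2, against 64.3% and 66.2% in Ctrl libraries 1 and 2. Group means were 51.0% ± 6.64 in Il33flx and 65.3% ± 1.36 in Ctrl (SD, n = 2 each), a difference of -14.3 percentage points. With 2 libraries against 2, a two-sided exact permutation test cannot give a p below 0.33, so none was run. The share is made from the counts of Fcgr2b and Fcgr3 given above and is not separate support for either.

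**Figure D3:**
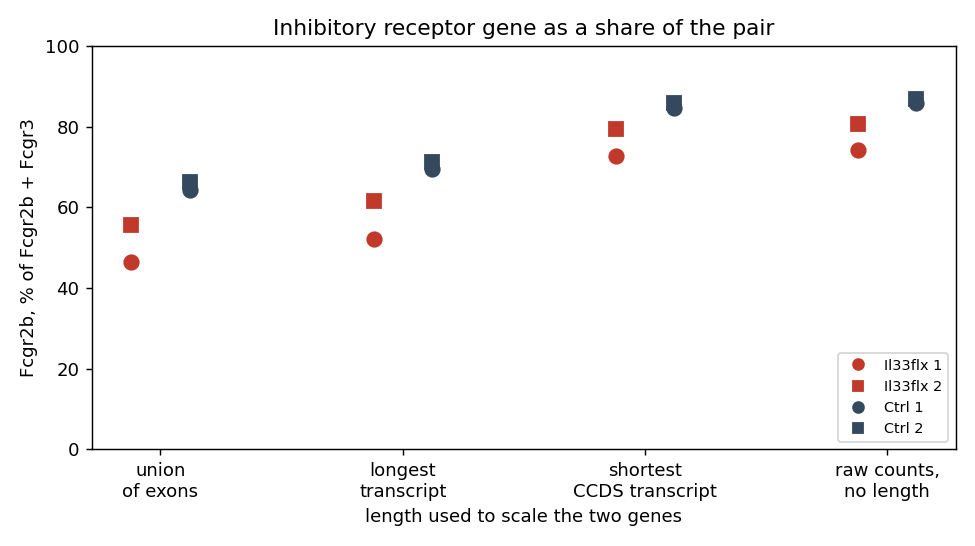
Fcgr2b as a percentage of Fcgr2b plus Fcgr3 (y axis, 0 to 100) in the Il33flx libraries (red, left of each pair) and the Ctrl libraries (dark, right), for 3 ways of scaling by gene length and for raw counts. The level depends on the length used. The Il33flx libraries lie below the Ctrl libraries, by 8.76 to 14.3 percentage points between means. Each column rescales the same counts by fixed lengths, so the order of the libraries cannot differ between the 4 columns.

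Fcgr4, an activating receptor gene for IgG2 subclasses (ENSMUSG00000059089, chromosome 1, 171018920 to 171029761, plus strand), was low and similar in 3 of the 4 libraries. It had 8.63 and 8.36 CPM in Il33flx libraries 1 and 2, against 8.42 and 10.5 CPM in Ctrl libraries 1 and 2. Ctrl 2 was the highest, and Ctrl 1 lay between the Il33flx libraries. Its log2 fold change came to -0.16 (SE 0.25, 95% interval -0.76 to 0.45, unadjusted p 0.557, edgeR), and was -0.30 without Ctrl 1. Without Ctrl 2 the sign turned (0.0128).

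Fcgr1, the gene of the high-affinity receptor CD64 against which the cells were sorted (ENSMUSG00000015947, chromosome 3, 96282909 to 96293969, minus strand), was the lowest of the 6 but was detected in each library. It had 340 and 259 counts in Il33flx libraries 1 and 2, against 422 and 342 in Ctrl libraries 1 and 2. Its mean was 4.24 ± 0.820 CPM in Il33flx and 5.02 ± 0.673 CPM in Ctrl (SD, n = 2 each), and the groups overlapped. Its log2 fold change came to -0.25 (SE 0.31, 95% interval -0.99 to 0.50, unadjusted p 0.456, edgeR), and -0.09 without Ctrl 1. By mean CPM, 37.4% of tested genes lay below it, so transcripts of the gated-out receptor were present at the level of a lowly expressed gene. In bulk libraries, a few cells with much Fcgr1 RNA and many cells with little cannot be told apart, which holds for each gene here.

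Fcer1g, the shared signalling chain (ENSMUSG00000058715, chromosome 1, 171229572 to 171234365, minus strand), had 124 and 95.8 CPM in Il33flx libraries 1 and 2, against 122 and 119 CPM in Ctrl libraries 1 and 2. Il33flx 1 and the Ctrl libraries were close, and Il33flx 2 was lower. Its log2 fold change came to -0.13 (SE 0.20, 95% interval -0.60 to 0.34, unadjusted p 0.531, edgeR), and was -0.10 without Ctrl 1. Without Il33flx 2 the sign turned (0.0796). Per exon length, Fcer1g exceeded the sum of Fcgr1, Fcgr3 and Fcgr4, the receptor chains that need it, in all libraries. The ratio was 6.42 and 5.61 in Il33flx libraries 1 and 2, against 7.91 and 7.22 in Ctrl libraries 1 and 2. The groups did not overlap in this ratio, which holds Fcgr3 in its denominator and was not tested.

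Fcgrt, the neonatal Fc receptor gene (ENSMUSG00000003420, chromosome 7, 45092990 to 45103851, minus strand), had the most counts of the 6, with 96.0% of tested genes below it by mean CPM. It had 229.5 and 268 CPM in Il33flx libraries 1 and 2, against 326 and 250 CPM in Ctrl libraries 1 and 2. The groups overlapped, and Ctrl 1 was the highest library. Its log2 fold change came to -0.21 (SE 0.20, 95% interval -0.70 to 0.28, unadjusted p 0.336, edgeR). Without Ctrl 1 it was 0.00.

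Levels of different genes were compared as CPM per kilobase of the union of annotated exons. Fcer1g averaged 126 ± 23.0 in Il33flx and 138 ± 2.30 in Ctrl, and Fcgrt 118 ± 12.9 in Il33flx and 137 ± 25.4 in Ctrl (CPM per kilobase, SD, n = 2 each). These top 2 genes did not differ beyond their spread, since each led in 2 of the 4 libraries. Fcgrt was 8.66 times as high as the next gene, Fcgr2b, which had 13.0 ± 2.02 in Il33flx and 16.5 ± 0.887 in Ctrl. Fcgr3 followed with 12.5 ± 1.38 in Il33flx and 8.77 ± 0.0520 in Ctrl, and its range over libraries overlapped that of Fcgr2b. Fcgr2b exceeded Fcgr3 in 3 of the 4 libraries, Il33flx 1 being the exception. Fcgr4 came next at 6.76 ± 0.151 in Il33flx and 7.54 ± 1.18 in Ctrl, and Fcgr1 last at 1.64 ± 0.317 in Il33flx and 1.94 ± 0.260 in Ctrl, in ranges apart from each other and from the genes above.

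The length used bears on Fcgr2b most, because its annotated exons sum to 5790 bases while its shortest CCDS transcript has 1462. With the longest annotated transcript per gene (3544 bases for Fcgr2b), the order was the same, and Fcgr2b exceeded Fcgr3 in all 4 libraries, by 1.76 times between means. With the shortest CCDS transcript, a length chosen after the data were seen, the order was again the same and Fcgr2b stood 4.27 times above Fcgr3. Fcgrt then stood 2.60 times above Fcgr2b, against 6.29 times with the longest transcript and 8.66 times with the union of exons.

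**Figure D4:**
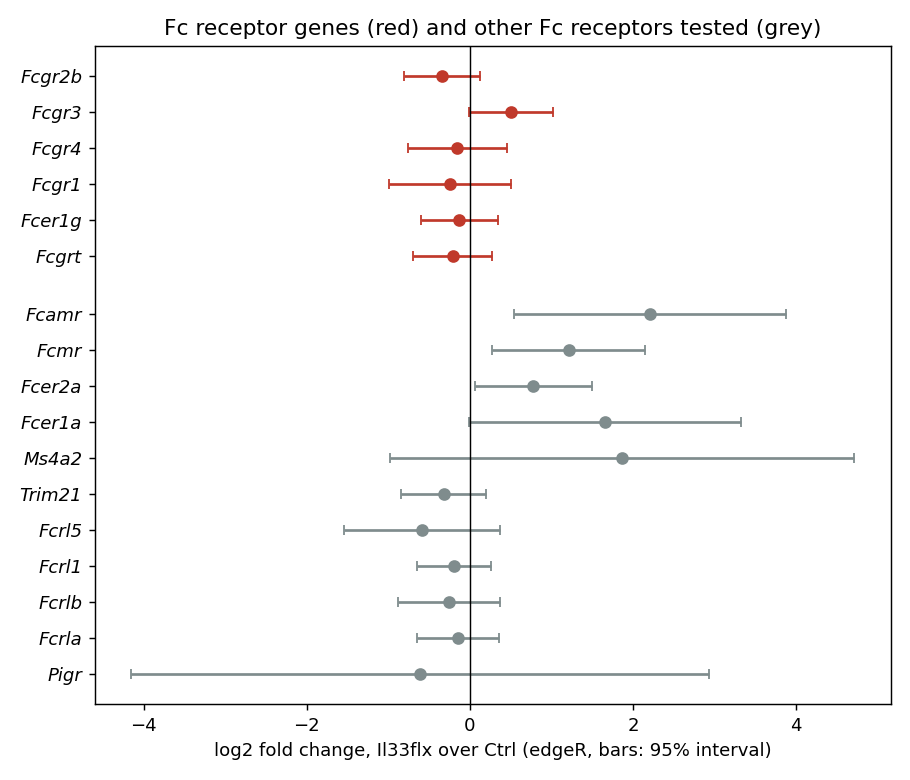
Log2 fold change of Il33flx over Ctrl (x axis) with 95% intervals from edgeR for the 6 genes (red) and for the 11 other Fc receptor genes that were tested (grey). Intervals of the 6 genes all include 0, that of Fcgr3 beginning at -0.0050, and the intervals of Fcamr, Fcmr and Fcer2a lie above 0 without passing the adjusted threshold.

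Among 196 tested genes of the lists used here, those with the library profile most like each of the 6 were named by the root mean square distance between log2 CPM profiles over the 4 libraries, each centred on its own mean. Nearest to Fcgr2b was Rac1, the gene of a GTPase of the cytoskeleton and phagocytosis, at a distance of 0.0486, with 214 and 263 CPM in Il33flx libraries 1 and 2, against 312 and 336 CPM in Ctrl libraries 1 and 2. Next to Fcgr2b came the adaptor gene Nck1 (0.128). Nearest to Fcgr3 were Blnk, an adaptor gene of antigen receptor signalling (0.0808), and Clec4n, the gene of the gamma chain-coupled lectin Dectin-2 (0.110). Blnk had 7.58 and 5.66 CPM in Il33flx libraries 1 and 2, against 4.60 and 4.28 CPM in Ctrl libraries 1 and 2. Fcer1g lay nearest to Bst2, a tetherin gene (0.0458), and to Tyrobp, the gene of the related adaptor DAP12 (0.0509). Fcgrt lay nearest to the invariant chain gene Cd74 (0.0395) and to the adaptor gene Lat2 (0.0401). Fcgr1 lay nearest to the adaptor gene Pik3ap1 (0.0376) and to Trim21, the cytosolic Fc receptor gene (0.0499), and Fcgr4 nearest to Rab11a (0.0433) and to Rbpj, the gene of the transcription factor of Notch signalling (0.0449). With 4 libraries, such likeness is a description only.

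Fcgr2b, Fcgr4, Fcgr3 and Fcer1g lie within 276 kb of chromosome 1 (GRCm38, 170958617 to 171234365). Another 13 genes are annotated there and counted, of which 4 were tested. Of these, Sdhc, a subunit gene of succinate dehydrogenase, had 32.4 and 29.8 CPM in Il33flx libraries 1 and 2, against 31.8 and 39.4 CPM in Ctrl libraries 1 and 2 (adjusted p = 0.995, edgeR). Pcp4l1, a calmodulin-binding peptide gene, was near the detection limit, with 35 and 25 counts in Il33flx libraries 1 and 2, against 8 and 9 in Ctrl libraries 1 and 2 (log2 fold change 1.91, SE 0.67, p 0.0270 before and 0.995 after adjustment, edgeR). Tomm40l and Cfap126 had log2 fold changes of -0.05 and 0.03 and overlapping groups. Of the 4 tested neighbours 1, Pcp4l1, read higher without overlap, as 15.4% of all tested genes did.

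The other Fc receptor genes comprised 12, of which 11 were tested. None was called, 3 (Fcmr, Fcer2a and Fcamr) had an unadjusted p under 0.05 and read higher in Il33flx (2.02% of tested genes), and 0 read lower at that level (1.24%). Fcmr, the IgM receptor gene, had 7.83 and 6.33 CPM in Il33flx libraries 1 and 2, against 4.01 and 2.09 CPM in Ctrl libraries 1 and 2 (log2 fold change 1.21, SE 0.39, p 0.0189 before and 0.995 after adjustment, edgeR). Fcer2a, the low-affinity IgE receptor gene CD23, had 4.83 and 4.63 CPM in Il33flx libraries 1 and 2, against 2.79 and 2.73 CPM in Ctrl libraries 1 and 2 (log2 fold change 0.78, SE 0.30, p 0.0371 before and 0.995 after adjustment, edgeR). Fcamr, a receptor gene for IgM and IgA, lay below 1 CPM in each library, with 36 and 25 counts in Il33flx libraries 1 and 2, against 8 and 6 in Ctrl libraries 1 and 2. Fcmr and Fcer2a are B cell genes, and 12 of the 15 B cell markers read higher in both Il33flx libraries, with 8 at an unadjusted p under 0.05 and none called, against 15.4% and 2.02% of all tested genes. Pax5, the B cell identity factor gene, had 1.74 and 1.06 CPM in Il33flx libraries 1 and 2, against 0.182 and 0.186 CPM in Ctrl libraries 1 and 2 (adjusted p = 0.791, edgeR). The summed level of the B cell list was 1137 to 1289 CPM in Il33flx and 1071 to 1437 CPM in Ctrl, most of it from Ighm. Fcmr and Fcer2a belong to that list too, so their values and those of the list are not separate, and the part of B cells in them was not tested.

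Fc receptor-like genes of B cells did not share that direction. Fcrl1 had 33.1 and 34.3 CPM in Il33flx libraries 1 and 2, against 39.0 and 38.2 CPM in Ctrl libraries 1 and 2, and Fcrla, an intracellular Fc receptor-like gene, had 22.5 and 19.8 CPM in Il33flx libraries 1 and 2, against 24.7 and 22.0 CPM in Ctrl libraries 1 and 2. Their log2 fold changes were -0.20 and -0.15 (adjusted p = 0.995 for each, edgeR), and the groups overlapped for Fcrla alone of the pair, which is on the B cell list as well. Trim21 had 54.0 and 43.7 CPM in Il33flx libraries 1 and 2, against 67.8 and 54.1 CPM in Ctrl libraries 1 and 2. Fcrl5, another B cell receptor-like gene, had a log2 fold change of -0.59 ± 0.40 SE at 1 to 2 CPM. The chains of the high-affinity IgE receptor of basophils and mast cells were close to the limit, with Fcer1a at 0.870 ± 0.492 CPM in Il33flx and 0.275 ± 0.145 CPM in Ctrl, and Ms4a2 at 0.729 ± 0.452 CPM in Il33flx and 0.199 ± 0.263 CPM in Ctrl (SD, n = 2 each).

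Receptors and adaptors that work with or beside the gamma chain gave no called gene. Of 13 such genes 11 were tested, with a median log2 fold change of 0.03, and 0 had an unadjusted p under 0.05. Clec4n had 5.01 and 4.65 CPM in Il33flx libraries 1 and 2, against 3.66 and 4.03 CPM in Ctrl libraries 1 and 2, and was the only tested gene of the 11 higher in both (15.4% of all tested genes). Tyrobp stood at 349 ± 54.2 CPM in Il33flx and 360 ± 1.69 CPM in Ctrl (SD, n = 2 each). Clec4b1, a lectin gene of DCs, was the only tested gene of the 11 lower in both (14.9% of all tested genes), at 4.02 and 6.79 CPM in Il33flx libraries 1 and 2, against 6.81 and 6.95 CPM in Ctrl libraries 1 and 2. Cd247, the gene of the related zeta chain of T and NK cells, overlapped, at 4.57 to 5.38 CPM in Il33flx and 5.01 to 8.51 CPM in Ctrl, and so did the lectin gene Clec4d, at 1.31 to 2.01 CPM in Il33flx and 0.573 to 1.73 CPM in Ctrl.

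Downstream of the activating receptors, 30 signalling genes were tested and 0 were called. Of these, 20 had a negative log2 fold change, 9 were lower in both Il33flx libraries and 2 higher, and the median was -0.12. Over all tested genes, 48.2% had a negative log2 fold change, 14.9% were lower without overlap and 15.4% higher. Pik3cg, the gene of the gamma isoform of the class I phosphoinositide kinase, had 219 and 209 CPM in Il33flx libraries 1 and 2, against 308 and 270 CPM in Ctrl libraries 1 and 2 (log2 fold change -0.43, SE 0.17, p 0.0430 before and 0.995 after adjustment, edgeR). Gab2, a scaffold gene of Fc receptor signalling, had 47.0 ± 2.92 CPM in Il33flx and 61.7 ± 8.55 CPM in Ctrl (SD, n = 2 each). Syk, the kinase gene at the head of the pathway, had 199 ± 27.4 CPM in Il33flx and 200.2 ± 35.5 CPM in Ctrl.

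Among 18 genes for inhibitory receptors and their effectors, 0 were called, the median log2 fold change was 0.03, 1 gene was lower without overlap and 2 were higher (14.9% and 15.4% of all tested genes). Inpp5d, the phosphatase gene downstream of Fcgr2b, had 883 and 838 CPM in Il33flx libraries 1 and 2, against 1192 and 894 CPM in Ctrl libraries 1 and 2 (log2 fold change -0.28 ± 0.20 SE, adjusted p = 0.995, edgeR). The inhibitory lectin genes Clec4a4 and Clec4a2 had log2 fold changes of 0.87 ± 0.49 SE and 0.63 ± 0.41 SE, and in both Ctrl 1 was the lowest library. Dok2, an adaptor gene that restrains kinase signalling, had 5.16 ± 0.652 CPM in Il33flx and 7.15 ± 2.27 CPM in Ctrl (SD, n = 2 each).

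Of 10 genes for the partner of the neonatal receptor and for endosomal sorting, 0 were called and the median log2 fold change was 0.16. Of these, 2 read higher and 3 lower without overlap, against 15.4% and 14.9% of all tested genes. B2m, the light chain gene, had 957 ± 217 CPM in Il33flx and 895 ± 182 CPM in Ctrl (SD, n = 2 each). Rab4a, a gene of fast recycling, averaged 1.56 ± 0.0864 CPM in Il33flx and 0.902 ± 0.00354 CPM in Ctrl (SD, n = 2 each). Both Il33flx libraries lay above both Ctrl libraries (log2 fold change 0.79, SE 0.40, p 0.0903 before and 0.995 after adjustment, edgeR). The endosome genes Eea1 and Snx2 had log2 fold changes of 0.42 and 0.32, with Ctrl 1 the lowest library for each. Rab11a, a recycling endosome gene, had 141 and 136 CPM in Il33flx libraries 1 and 2, against 144 and 165 CPM in Ctrl libraries 1 and 2, and Rab7 and Ap2a1 were also lower without overlap.

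**Figure D5:**
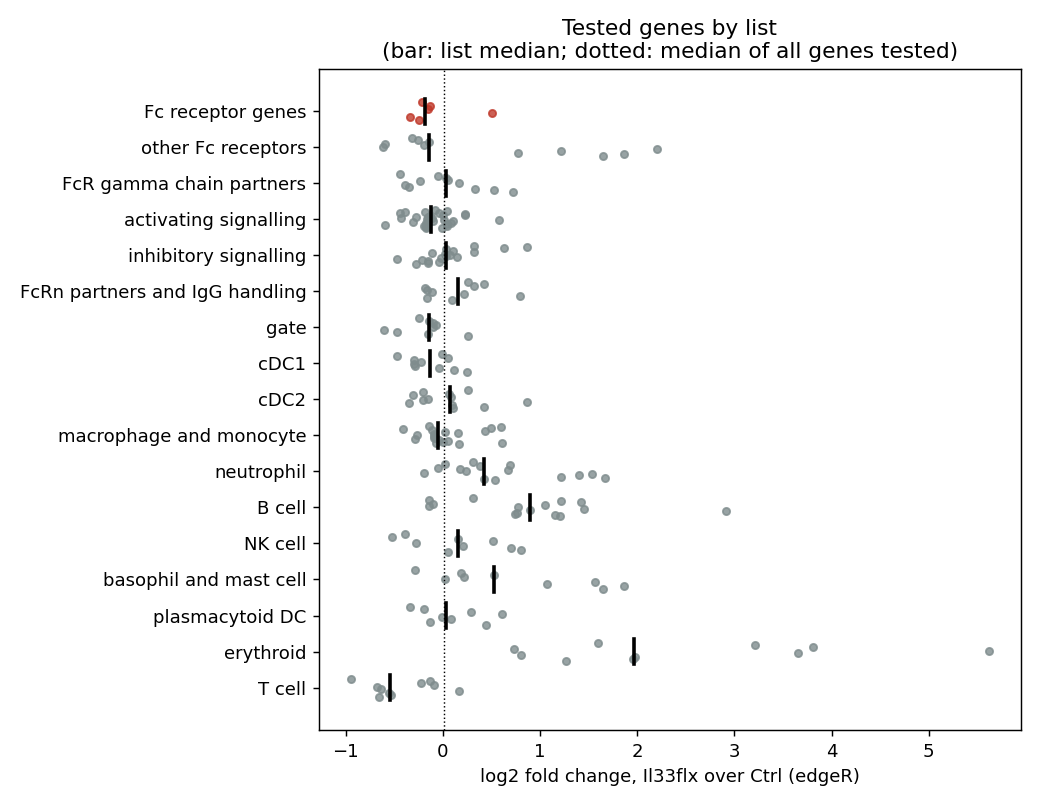
Log2 fold change of Il33flx over Ctrl (x axis, edgeR) for the tested genes of each list, with the 6 Fc receptor genes in red at the top, a bar at each list's median and a dotted line at the median of all tested genes, 0.01. The Fc receptor and signalling lists centre near 0, while the B cell, neutrophil, basophil and erythroid lists lie to the right and the T cell list to the left, with 0 genes called in any list.

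Markers of other cells that carry Fc receptors were read beside these results. Macrophage and monocyte genes, which mark cells that normally carry CD64, overlapped in sum, with 2138 to 2280 CPM in Il33flx and 2012 to 2311 CPM in Ctrl over 20 genes. Most of that sum came from Lyz2 and Cd68. All 20 were detected, and 4 read higher and 0 lower in both Il33flx libraries, against 15.4% and 14.9% of all tested genes. The receptor gene Csf1r had 212 ± 18.8 CPM in Il33flx and 211 ± 50.3 CPM in Ctrl, and the uptake receptor gene Mertk 1.83 ± 0.794 CPM in Il33flx and 1.92 ± 0.466 CPM in Ctrl (SD, n = 2 each). Cd14, the lipopolysaccharide co-receptor gene, had 48.9 and 52.1 CPM in Il33flx libraries 1 and 2, against 32.2 and 34.1 CPM in Ctrl libraries 1 and 2 (log2 fold change 0.61, SE 0.19, p 0.0155 before and 0.995 after adjustment, edgeR).

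Fcgr3 is a gene that neutrophils also express, and of 15 neutrophil markers 13 had a positive and 2 a negative log2 fold change. None was called, and 5 read higher at an unadjusted p under 0.05, where 2.02% of all tested genes did. The 15 genes summed to 648 to 918 CPM in Il33flx and 524 to 544 CPM in Ctrl, and none was at 0. In both Il33flx libraries 6 read higher and 0 lower (15.4% and 14.9% of all tested genes). These 6 were the granule genes Mpo, Elane, Prtn3, Ctsg and Camp and the receptor gene Csf3r. The other 9, among them S100a8, S100a9 and Cxcr2, overlapped. Mpo, with a large part in the sum, had 191 and 143 CPM in Il33flx libraries 1 and 2, against 106 and 38.0 CPM in Ctrl libraries 1 and 2. The defining marker Ly6g had 1.56 and 1.40 CPM in Il33flx libraries 1 and 2, against 1.34 and 2.05 CPM in Ctrl libraries 1 and 2. Prtn3, a granule protease gene, had 16.0 and 14.4 CPM in Il33flx libraries 1 and 2, against 7.64 and 3.90 CPM in Ctrl libraries 1 and 2 (log2 fold change 1.40, SE 0.36, p 0.00698 before and 0.995 after adjustment, edgeR). Il33flx 1 was the highest library for Fcgr3 and for the neutrophil sum, but also for the erythroid, basophil and mast cell, and plasmacytoid DC sums. It was not the highest for the macrophage and monocyte, B cell, NK cell or T cell sums. The part of neutrophils in the value of Fcgr3 was not tested.

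NK cells carry the Fcgr3 receptor, and their 10 markers summed to 161 to 190 CPM in Il33flx and 111 to 194 CPM in Ctrl, with overlapping groups. Most of that sum came from Klrk1, while Ncr1 averaged 0.968 CPM in Il33flx and 0.933 CPM in Ctrl. Basophil and mast cell markers summed to 316 to 407 CPM in Il33flx and 307 to 364 CPM in Ctrl, mostly from Kit and Hdc, and 4 of 9 tested genes read higher in both Il33flx libraries (15.4% of all tested genes). The 10 type 1 DC genes summed to 9558 to 10521 CPM in Il33flx and 10922 to 11597 CPM in Ctrl, without overlap between the groups. Most of that sum came from Irf8, Naaa and Wdfy4. Of the 10 genes, 3 (Irf8, Wdfy4 and Cadm1) read lower in both Il33flx libraries and 0 higher (14.9% and 15.4% of all tested genes). Xcr1, Clec9a and Naaa had positive log2 fold changes of 0.25, 0.11 and 0.05, and the other 7 had negative ones. For the 12 type 2 DC genes the sums were 1109 to 1270 CPM in Il33flx and 1183 to 1367 CPM in Ctrl, and overlapped. Levels differed among these 12 genes, from Sirpa at 298 CPM in Il33flx and 278 CPM in Ctrl to Mgl2 at 4.64 CPM in Il33flx and 4.36 CPM in Ctrl (means). Sums over different genes do not measure the share of either DC type among the sorted cells. Erythroid genes were low, at 15.7 to 37.2 CPM in Il33flx and 6.75 to 7.01 CPM in Ctrl, and 8 of 10 read higher in both Il33flx libraries (15.4% of all tested genes). T cell genes summed to 119 to 155 CPM in Il33flx and 145 to 193 CPM in Ctrl, and 7 of 10 read lower in both Il33flx libraries (14.9% of all tested genes). Plasmacytoid DC genes overlapped, at 179 to 259 CPM in Il33flx and 205 to 213 CPM in Ctrl. The part of these cells in the Fc receptor values was not tested.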

How the data were processed

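RNA of 4 mouse libraries was sequenced (TruSeq mRNA kit from Illumina, according to the labels' protocols). The authors deposited whole-number gene counts without normalization. Build GRCm38, DESeq2, HTSeq, STAR and Trimmomatic 0.39 are named in the submitters' processing notes, and the other versions, annotation, strand setting and read length are not given in the sources used here. The authors' deposited comparison table holds normalized signal (counts over 1 size factor per library, checked against the counts), log2 fold changes with standard errors, a Wald score and p-values. For Fcgr3 the authors' deposited table gives a log2 fold change of 0.48 (unadjusted p = 0.0551), for Fcgr2b -0.36 (0.141), and no adjusted p below 0.999997 for the 6 genes. The 5 HTSeq summary rows stayed out of library sizes: genes took 69.9% to 72.2% of reads, and 21.9% to 23.1% were not uniquely aligned, 3.22% to 4.93% had no feature and 2.62% to 2.74% were ambiguous.

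The comparison of Il33flx with Ctrl used edgeR 4.0.16 (R 4.3.3), its quasi-likelihood test, filterByExpr, TMM factors and no covariate. Benjamini-Hochberg adjustment ran over all 14995 tested genes. Standard errors are the log2 fold change over the square root of F. The biological coefficient of variation was 28.6%. DESeq2 1.42.0 and limma 3.58.1 were alternatives. The procedure was tested on simulated counts. Lengths, coordinates and transcripts came from GENCODE M21 of the same build, and sequences were aligned with Biopython 1.88. The interval on Il33 counts covers counting error only. The members and gene lists were chosen with earlier results of these data known. Named from each list were up to 4 genes with the smallest p among those of at least 1 CPM in a group mean, the genes of the gate, and for each member the 2 nearest genes by profile. Further genes with a known role (Syk, Tyrobp, B2m, Csf1r, Mertk, Fcrl1, Fcrla, Fcer1a, Ms4a2, Fcamr, Kit, Ighm, Ly6g, Rab7, Ap2a1, Sirpa, Mgl2, Klrk1, Ncr1, Lyz2, Cd68, Naaa, Xcr1, Clec9a, Camp, Csf3r, S100a8, S100a9 and Cxcr2) lie outside that rule and were chosen after their values were seen.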

Additional observations from a re-analysis of the deposited data

How the results depend on the processing

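Under 11 alternatives to the main test, 0 of the 6 Fc receptor genes were called, with adjusted p from 0.215 upward (edgeR, DESeq2 or limma-voom). Fcgr1, Fcgr2b and Fcgr3 kept their direction in 11 of 11, with log2 fold changes of -0.46 to -0.03, -0.48 to -0.19 and 0.39 to 0.65. Fcgr4, Fcer1g and Fcgrt kept theirs in 10 of 11. With a library left out, Fcgr4 ran from -0.30 to 0.0128, turning positive without Ctrl 2, Fcer1g from -0.33 to 0.0796, turning positive without Il33flx 2, and Fcgrt from -0.39 to 0.0017, turning positive without Ctrl 1. The cause was not tested. Fcgr3 had an unadjusted p under 0.05 in 3 of the 11, and Fcgr2b and Fcgrt in 1 each. Over all genes, 1 was called in the main test, 0 with library size alone, without a filter and with limma-voom, 53 with DESeq2, and 1 to 66 with a library left out. Replicate numbers are shared between the groups, and the labels do not say whether same-numbered libraries were handled together. Across genes, same-numbered libraries did not deviate together (r = -0.0323). With 2 libraries per group the deviations mirror each other, so this value cannot decide whether the libraries were paired. With the replicate number as a block, 33 genes and 0 of the 6 were called, and the value of Fcgr3 was 0.50 (log2). The order of levels per length was the same under all 3 lengths. The difference in the Fcgr2b share of the pair was -13.6 percentage points with the longest transcript, -9.21 with the shortest CCDS transcript, -8.76 with raw counts, and -19.0 to -9.57 with a library left out. These settings could not turn the sign of the difference, because lengths rescale the same counts and the groups did not overlap. Il33 had at most 8 counts in any library and was not among the genes tested, and the exact limits on its ratio, 0.0890 and 1.25, included 1.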
